A study of Mus musculus with 6 samples.

Results

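The zinc finger gene cluster of mouse chromosome 4 is a stretch of duplicated genes and gene remnants on the genome build GRCm38. Its members were all annotated genes within fixed limits, from Zfp990, which starts at 145510759, to Gm16211, which ends at 147670854. This gave 80 of the 49212 genes in the count tables: 19 protein-coding genes, 50 pseudogenes and 11 non-coding RNA genes, and no exon of any of them overlapped an exon of another counted gene. The study modelled polycystic ovary syndrome (PCOS) in C57BL/6J mice and sequenced RNA from whole liver at an age of 15 weeks. There were 3 libraries of the placebo group and 3 of the group given a pellet of DHT (dihydrotestosterone, an androgen that is not converted to estrogen). The labels name the strain, age, tissue and treatment and give no sex, litter, collection time or batch, and nothing states that each library is a different animal, so that p-values measure the spread between libraries, which may be technical. The stretch was selected on the levels of its genes in these same libraries, DHT against placebo. The difference between DHT and placebo within it is therefore given as a description. Where fits over all genes called members, nothing is read from the calls. Y-linked transcripts were high in the DHT libraries only, as given below, so the pellet and whatever else comes with these transcripts cannot be told apart.

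C2H2 zinc finger proteins bind DNA through a row of small folds, each held by a zinc ion between a pair of cysteines and a pair of histidines. Many genes of this cluster code for the KRAB type, in which a KRAB domain recruits the corepressor TRIM28, which in turn brings the histone methyltransferase SETDB1 to the bound site. Such proteins are known for silencing transposable elements in the embryo, and their genes lie in clusters that grew by repeated local duplication, which leaves near-copies of genes and promoters side by side.

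The promoters carry this history. RefSeq (GRCm38.p6) gave 19 start-site windows, each running from 250 bases before to 50 bases after a start, for 14 of the 80 members. The 15-base stretch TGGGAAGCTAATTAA was found in 10 of these windows, each of a different gene: Gm13212, Zfp980, Zfp987, Zfp600, Zfp981, Rex2, Zfp988, Zfp982, Zfp985 and Zfp979. It was picked as the run of letters that most member windows shared, so its frequency there is no test. On either strand it occurred in 12 of all 32851 RefSeq windows of this length (0.0365%), and the other 2 were those of Zfp984 and Zfp534, the zinc finger genes that follow the cluster on its right. In the 10 member windows it ended 99 to 149 bases before the start. The 7 windows below are shown because their genes had very different counts behind closely similar promoters, with this stretch in capitals.
Zfp979 (chr4:147642459-147642758, minus strand): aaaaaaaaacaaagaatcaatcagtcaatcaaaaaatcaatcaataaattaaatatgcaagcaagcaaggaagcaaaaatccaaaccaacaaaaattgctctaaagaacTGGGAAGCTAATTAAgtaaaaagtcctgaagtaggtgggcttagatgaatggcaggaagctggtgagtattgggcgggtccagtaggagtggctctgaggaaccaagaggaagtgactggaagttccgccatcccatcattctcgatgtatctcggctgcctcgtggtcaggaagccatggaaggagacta
Zfp600 (chr4:146156577-146156876, plus strand): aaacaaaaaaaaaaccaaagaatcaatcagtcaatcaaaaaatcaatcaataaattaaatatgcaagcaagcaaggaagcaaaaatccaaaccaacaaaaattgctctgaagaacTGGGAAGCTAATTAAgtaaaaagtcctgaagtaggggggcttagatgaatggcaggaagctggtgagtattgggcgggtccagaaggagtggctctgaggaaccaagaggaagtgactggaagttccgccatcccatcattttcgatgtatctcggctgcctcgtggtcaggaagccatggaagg
Rex2 (chr4:147021600-147021899, plus strand): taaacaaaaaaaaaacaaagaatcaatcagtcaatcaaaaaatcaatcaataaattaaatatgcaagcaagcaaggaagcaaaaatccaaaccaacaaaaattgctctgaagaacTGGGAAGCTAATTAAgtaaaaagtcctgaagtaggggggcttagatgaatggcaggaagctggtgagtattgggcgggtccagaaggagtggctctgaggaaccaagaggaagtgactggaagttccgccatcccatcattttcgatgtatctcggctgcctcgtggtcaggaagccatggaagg
Zfp982, the window at its annotated start (chr4:147492167-147492466, plus strand): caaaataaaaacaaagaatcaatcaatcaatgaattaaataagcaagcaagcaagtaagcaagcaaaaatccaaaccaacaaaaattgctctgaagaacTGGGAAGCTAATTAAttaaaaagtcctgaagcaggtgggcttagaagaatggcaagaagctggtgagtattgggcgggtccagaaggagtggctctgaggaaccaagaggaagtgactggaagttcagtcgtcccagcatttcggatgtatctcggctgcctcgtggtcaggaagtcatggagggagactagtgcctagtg
Zfp985 (chr4:147553027-147553326, plus strand): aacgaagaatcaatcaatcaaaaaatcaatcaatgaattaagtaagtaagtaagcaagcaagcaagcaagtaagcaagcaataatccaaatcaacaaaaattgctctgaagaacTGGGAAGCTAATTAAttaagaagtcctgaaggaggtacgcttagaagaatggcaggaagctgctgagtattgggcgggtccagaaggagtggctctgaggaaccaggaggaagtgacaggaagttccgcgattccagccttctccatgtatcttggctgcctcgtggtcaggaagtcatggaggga
Zfp981 (chr4:146514670-146514969, plus strand): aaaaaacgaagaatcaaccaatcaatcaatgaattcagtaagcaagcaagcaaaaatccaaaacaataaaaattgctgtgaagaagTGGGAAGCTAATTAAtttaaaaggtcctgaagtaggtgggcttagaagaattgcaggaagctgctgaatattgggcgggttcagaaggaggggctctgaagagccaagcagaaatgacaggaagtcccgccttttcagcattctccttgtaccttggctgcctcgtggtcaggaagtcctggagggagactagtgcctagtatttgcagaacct
Zfp984, outside the cluster (chr4:147809739-147810038, minus strand): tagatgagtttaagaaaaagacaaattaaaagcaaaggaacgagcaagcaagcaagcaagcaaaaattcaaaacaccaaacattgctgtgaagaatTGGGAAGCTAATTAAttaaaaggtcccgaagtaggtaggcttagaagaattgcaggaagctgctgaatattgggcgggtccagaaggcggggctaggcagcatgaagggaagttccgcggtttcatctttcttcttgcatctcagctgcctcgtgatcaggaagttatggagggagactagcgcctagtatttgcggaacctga

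The Rex2 and Zfp600 windows were identical at 299 of 300 aligned positions (99.7%). The Zfp979 window matched Rex2 at 290 of 294 (98.6%) and Zfp600 at 289 of 294 (98.3%). Zfp980 and Zfp979 matched at 91.0%, and Zfp987 and Zfp985 at 89.9%. The box CCAAT, searched on both strands, was in 12 of the 19 windows, against 37.4% of all windows. AGAACA, the half-site of androgen and glucocorticoid receptors, was in 3 of 19 against 19%, TATAAA in 2 against 13.6%, CACGTG in 1 against 7.15% and TTCNNNGAA in 1 against 8.30%, all on both strands. The windows descend from shared copies and are not independent of each other.

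The cluster as a whole gave few reads. Summed over the 80 members, placebo libraries 1, 2 and 3 held 202, 180 and 430 counts and DHT libraries 1, 2 and 3 held 1161, 1018 and 1053, out of 41336844 to 60209462 counts per library. In counts-per-million of all gene counts (CPM) these sums were 3.36, 3.27 and 8.14 against 19.6, 19.7 and 25.5, and the groups did not overlap. The means were 4.92 ± 2.79 and 21.6 ± 3.37 CPM (SD, n = 3 each), 4.38-fold apart or 2.13 on the log2 scale. Placebo library 3 stood above the other two placebo libraries, and without it the log2 difference was 2.70. Without the most counted member, Zfp982, the sums were still 3.74-fold apart. More members were also seen at all: 27, 28 and 31 of the 80 had a count in the placebo libraries and 40, 48 and 45 in the DHT libraries. In bulk tissue, fewer cells that use these genes and less RNA per cell cannot be told apart.

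Of the 80 members, 23 had no count in any library, 31 had fewer than 10 in all and 26 had 10 or more. In CPM, 22 members were higher in every DHT library than in every placebo library, 1 was lower in this way and 57 overlapped or had no count. In the same raw CPM, 21.1% of the genes in the fit were higher without overlap and 6.27% were lower. By kind, 9 of the 19 protein-coding genes, 10 of the 50 pseudogenes and 3 of the 11 non-coding RNA genes were higher without overlap. Beside these stands the same 21.1%, which covers only genes that passed a filter on low counts. In these kinds 3, 18 and 2 members had no count and could not separate, so the shares are not measured alike. Protein-coding members together stood at 2.53 ± 1.94 CPM in the placebo and 16.2 ± 3.29 CPM in the DHT group (6.40-fold, or 11.5-fold without placebo library 3). Pseudogenes went from 2.21 ± 0.780 to 4.80 ± 0.424 CPM (2.17-fold) and non-coding RNA genes from 0.181 ± 0.0730 to 0.561 ± 0.231 CPM (3.10-fold).

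Only 14 members passed the filter on low counts (edgeR's filterByExpr) and entered the fit across all genes, which gave log2 fold changes of DHT minus placebo with standard errors. A member could pass through the group in which it was high, so the counts over these 14 support nothing. Their fold changes ran from -1.60 to 5.25 with a median of 2.04, against -0.02 over all 15126 genes in the fit, and 13 of 14 were above 0. With counts scaled by TMM (edgeR's correction for library composition), 9 were higher without overlap, where 12.7% of all genes were, and 1 was lower, where 10.9% were. edgeR's quasi-likelihood test, called at an adjusted p under 0.05 over all genes, called 4 of the 14 (Zfp979, Gm13169, Zfp981 and Zfp985), all higher, where 1.65% of all genes were called in either direction and 0.952% as higher. This is the contrast that chose the stretch, and nothing is read from it. The count of called members moved with the fit, as did that over all genes, given below. Among the members it was 8 with the replicate number as a block, 7 with DESeq2, 8 with limma voom and 9 without placebo library 3. It was 0 without placebo library 1 and 1 without placebo library 2 or without any of the 3 DHT libraries, Zfp979 in each of these cases.

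**Figure D1:**
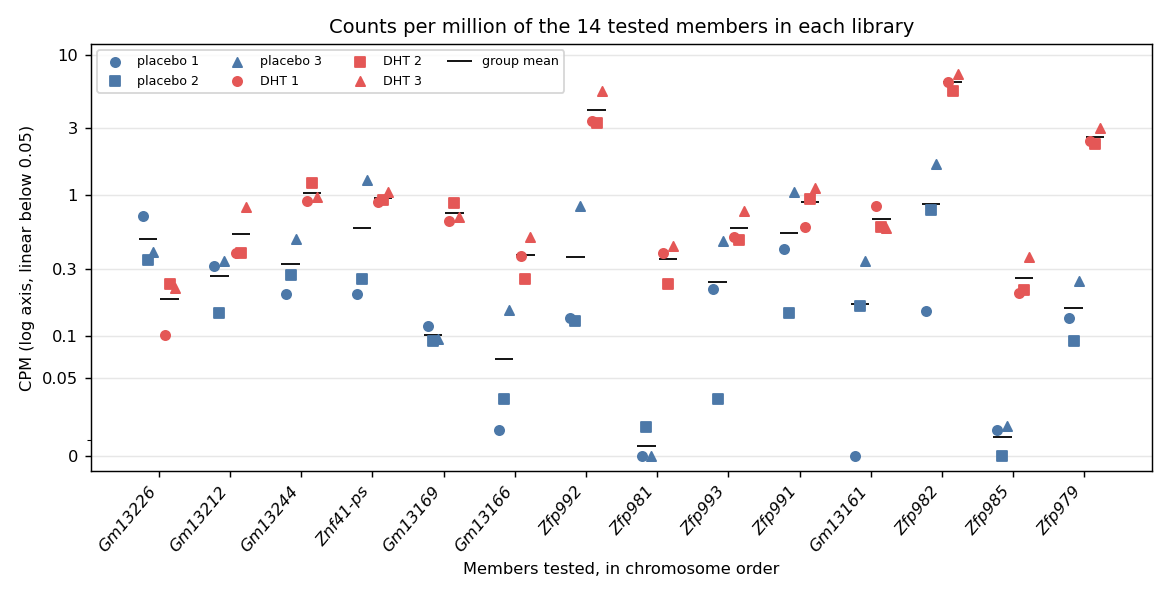
CPM of the 14 members in the fit, in chromosome order, in each of the 6 libraries; the vertical axis is logarithmic and linear below 0.05, and black bars are group means. All 3 DHT libraries lie above all 3 placebo libraries for 11 members, which in raw CPM holds for 21.1% of all genes in the fit, Gm13226 lies the other way round, which holds for 6.27%, and placebo library 3 (blue triangles) is the highest placebo library for 11.

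The Y chromosome separated the same libraries. All its genes together stood at 1.70 ± 0.600 CPM in the placebo group and 157 ± 12.1 CPM in the DHT group, Ddx3y at 6, 3 and 3 counts against 4342, 3833 and 3274, and Eif2s3y at 1, 5 and 3 against 2807, 3038 and 2431. Xist, the RNA of the inactive X chromosome, had 2522, 1281 and 12404 counts in the placebo libraries and 12, 6 and 23 in the DHT libraries. The labels give no sex. For every difference between DHT and placebo given here, above and below, the pellet and whatever else comes with Y-linked transcripts cannot be told apart. Mitochondrial transcripts took 4.96 ± 1.80% of the counts in the placebo and 7.64 ± 1.07% in the DHT group. Among markers of liver cell types, in summed CPM of placebo and then DHT libraries, 6 hepatocyte genes ran from 90620 to 130300 and from 80630 to 91780, and the pair of proliferation genes, Mki67 and Top2a, from 1.10 to 4.78 and from 5.54 to 9.76. In this raw CPM the hepatocyte sums overlapped between the groups, and the proliferation sums did not. Scaled by TMM, the hepatocyte sums lay lower in every DHT library than in every placebo library. Of all genes in the fit, 21.1% were higher and 6.27% lower without overlap in raw CPM, and 12.7% and 10.9% scaled by TMM. The other lists overlapped in raw CPM: 5 genes of Kupffer cells and macrophages at 149 to 232 and 186 to 286, and 4 of endothelium at 85.2 to 152 and 82.0 to 111. So did 4 genes of stellate cells at 202 to 400 and 183 to 229, 3 of cholangiocytes at 6.48 to 13.97 and 6.82 to 13.9, and 5 of lymphocytes at 5.98 to 13.5 and 9.16 to 15.1. edgeR called no marker, beside 1.65% of all genes. Krt19 and Epcam of cholangiocytes nevertheless differed by -1.49 ± 0.35 and -0.89 ± 0.29 (edgeR, adjusted p = 0.0892 and 0.200), while Sox9 differed by 0.51 ± 0.51. Nkg7 of lymphocytes differed by -1.46 ± 0.44 (edgeR, adjusted p = 0.166). Cd3e and Cd79a lay at -0.61 and -0.51, and Ptprc and Ms4a1 at 0.09 and -3e-04. Cps1, the most different hepatocyte gene, differed by -1.41 ± 0.39 (edgeR, adjusted p = 0.139). Mki67 differed by 1.56 ± 0.54 and Top2a by 0.71 ± 0.49 (edgeR, adjusted p = 0.225 and 0.507). The part of these in the differences was not tested.

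Zfp982, which codes for a protein with 7 zinc fingers, was the most abundant member. It had 9, 43 and 89 counts in placebo libraries 1, 2 and 3 and 381, 289 and 303 in the DHT libraries. Every DHT library was above every placebo library, and within the placebo group the counts ran over a wide range. The means were 0.872 ± 0.772 and 6.45 ± 0.872 CPM, and the fitted difference was 2.68 ± 0.70 (log2, ± SE). Per kilobase of exon, Zfp982 stood at 4.33 CPM in the DHT group, the highest of the 14, ahead of Gm13161 at 1.21 and Zfp992 at 0.895 CPM per kilobase. Of its transcript, 3.06% of all 100-base stretches recur in another gene, so most of its counts can be placed by reads of this length. Zfp982 made up 4.46% (95% Wilson interval 2.36 to 8.25) of the counts of the stretch in placebo library 1, 23.9% (18.2 to 30.6) in library 2 and 20.7% (17.1 to 24.8) in library 3. In the DHT libraries its share was 32.8%, 28.4% and 28.8%. The share in placebo library 1 thus lay below those in the other placebo libraries beyond counting error.

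Over their whole length, Zfp992 and Zfp991 form the closest protein pair of the cluster. Both code for 573 residues with 11 zinc fingers, and the sequences are 99.0% identical. The shorter Zfp993, with 313 residues, matches Zfp991 at 99.7% and Zfp992 at 99.4% of its aligned residues. Zfp992 had 8, 7 and 44 counts in the placebo libraries and 202, 170 and 228 in the DHT libraries, with means of 0.364 ± 0.406 and 4.07 ± 1.25 CPM and a log2 difference of 3.28 ± 0.74. Zfp991 had 25, 8 and 56 counts against 35, 49 and 47, with means of 0.540 ± 0.470 and 0.892 ± 0.277 CPM and a difference of 0.52 ± 0.66. Zfp992 separated the groups, and Zfp991 overlapped between them because placebo library 3 lay above DHT libraries 1 and 2. In the placebo group Zfp992 was at 0.0801 and Zfp991 at 0.185 CPM per kilobase, and in the DHT group at 0.895 and 0.306. The order of the pair was therefore opposite in the group means. Of the Zfp991 transcript, 70.3% of 100-base stretches recur in other genes, against 28.6% for Zfp992, so that counts of Zfp991 are the less certain.

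Zfp993 and the pseudogene Znf41-ps belong to the same copy family as this pair, joined by shared 100-base stretches. Zfp993, with 2 zinc fingers, had 13, 2 and 25 counts in the placebo libraries and 30, 25 and 32 in the DHT libraries, a difference of 1.08 ± 0.72. Znf41-ps had 12, 14 and 68 against 53, 48 and 44, a difference of 0.53 ± 0.69, and its highest library of all was placebo library 3. Gm13166, a non-coding RNA that shares stretches with Zfp993 and Zfp991, had 1, 2 and 8 counts against 22, 13 and 21 (2.26 ± 0.73) and did not overlap. Summed over the 6 members of the family counts were 59, 33 and 201 in the placebo and 342, 305 and 372 in the DHT libraries. The family sum was 3.84-fold higher in the DHT group, or 8.72-fold without placebo library 3, and did not overlap between groups. Placebo library 3 held more counts of this family than the other two placebo libraries together.

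Zfp979, which RefSeq also lists as Ssm1b, had the smallest spread relative to its difference. It had 8, 5 and 13 counts in the placebo libraries and 144, 121 and 124 in the DHT libraries. The means were 0.157 ± 0.0803 and 2.59 ± 0.358 CPM, and the difference was 3.84 ± 0.46. Across all 14 alternative fits the log2 difference of Zfp979 lay between 3.56 and 4.32. Its share of the counts of the stretch was 2.78 to 3.96% in the placebo libraries and 11.8 to 12.4% in the DHT libraries.

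The relatives of Zfp979 had few counts or none. The promoter windows of Zfp600 and Rex2 are nearly those of Zfp979, and that of Zfp980 is less alike, as given above. Zfp600, whose protein has 17 zinc fingers, had 0, 2 and 0 counts in the placebo and 9, 11 and 13 in the DHT libraries, a ratio of 18.2 (95% interval 4.66 to 157, counting error only), and did not enter the fit. Rex2, with 15 zinc fingers, had 0 counts in all 6 libraries. Zfp980, with 13, had 1, 3 and 2 against 7, 11 and 2, and the groups overlapped. Zfp978 had 1 count in all. Of the 100-base stretches, 75.3% of those of Rex2, 67.8% of Zfp600 and 60.5% of Zfp978 recur in other genes, against 21.5% for Zfp979. How the authors treated reads that map to several places is not given in the sources used here, so a 0 for Rex2 does not show that it was silent. The 5 genes together had 9, 10 and 15 counts against 160, 144 and 139, and were 14.4-fold higher in the DHT group without overlap.

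Zfp981 and Zfp985 were at the edge of detection in the placebo group. Zfp981, with 7 zinc fingers, had 0, 1 and 0 counts in the placebo and 23, 12 and 18 in the DHT libraries, which is a ratio of 58.5 (10.1 to 2352) and a fitted difference of 5.25 ± 0.86. Zfp985, with 10, had 1, 0 and 1 against 12, 11 and 15, a ratio of 20.96 (5.42 to 179) and a fitted difference of 4.01 ± 0.75. Both separated the groups in every library, and both stayed low, at 0.111 and 0.0903 CPM per kilobase in the DHT group. The pair had been proposed as near-identical copies, and the annotation goes against this. Their proteins align with 69.3% identity, no 100-base stretch is shared between their transcripts, and only 12.2% of the stretches of Zfp981 and 1.73% of those of Zfp985 recur in any other gene. Zfp981 starts at 146502027 in the count tables and its RefSeq promoter window at 146514670, so that the window printed above is for another annotated start.

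Gm13212, which codes for the protein with the most zinc fingers of the cluster, 20, was among the least different members. It had 19, 8 and 18 counts in the placebo and 23, 20 and 34 in the DHT libraries, a difference of 0.79 ± 0.51. Zfp987, Zfp988, Zfp989, Zfp990, Zfp986 and the short coding genes Gm21411 and Gm16503 had between 0 and 9 counts in all. At the left edge of the stretch, the first member, Zfp990, had 1 count in the placebo and 3 in the DHT group, and the nearest gene outside, Gm13229, had none. At the right edge the last members, Gm13155 and Gm16211, had none, as had Zfp534, which lies across the limit and was left out.

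Of the pseudogenes of Ppp2r5a, which codes for a regulatory subunit of the phosphatase PP2A, Gm13169, Gm13244 and Gm13233 lay higher in every DHT library than in every placebo library. Gm13169 (chr4:146239954-146241633) had 7, 5 and 5 counts in the placebo and 39, 46 and 29 in the DHT libraries, with means of 0.101 ± 0.0137 and 0.750 ± 0.123 CPM and a difference of 2.68 ± 0.42. Gm13244 (chr4:145745746-145747401) had 12, 15 and 26 against 54, 63 and 40, a difference of 1.49 ± 0.45. Gm13233 had 0, 1 and 0 against 4, 16 and 3, and Gm13142 1, 3 and 3 against 9, 4 and 2, where the groups overlapped. Gm13233 and Gm13142 did not enter the fit. The family of Gm13169, Gm13244 and Gm13233 summed to 19, 21 and 31 counts against 97, 125 and 72, 4.51-fold higher without overlap. Ppp2r5a itself was at 149 ± 28.9 CPM in the placebo and 198 ± 11.9 CPM in the DHT group, 1.33-fold. Of the 100-base stretches, 82.4% in Gm13169 and 81.6% in Gm13244 recur in other genes, and both share stretches with each other, with Gm13233 and with Ppp2r5a.

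A second pseudogene family, with 5 members, has Gm13161 as its most counted copy. Gm13161 (chr4:147443471-147444029, plus strand) lies just after the upstream RefSeq start of Zfp982, whose window is chr4:147442864-147443163 on the same strand. It had 0, 9 and 18 counts in the placebo and 50, 31 and 24 in the DHT libraries, a difference of 1.82 ± 0.89. Placebo library 1 was lowest for Gm13161 as for Zfp982. Gm13243 had 1, 0 and 0 counts against 6, 3 and 7, and Gm13240 had none against 6, 3 and 3, at least 4.41-fold higher against a floor of 3 counts over the placebo group. The family summed to 1, 9 and 18 counts against 64, 39 and 38, 5.28-fold higher without overlap, or 10.2-fold without placebo library 3.

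Some pseudogenes overlapped between the groups or lay the other way round. Gm13226 (chr4:145576889-145577292), a pseudogene of the ribosomal protein gene Rpl28, had 43, 19 and 21 counts in the placebo and 6, 12 and 9 in the DHT libraries, and was the only member lower without overlap, at -1.60 ± 0.50. Rpl28 itself went from 326 ± 87.2 to 192 ± 27.4 CPM, 0.589-fold, and 13.4% of the stretches of Gm13226 recur in Rpl28 and its other pseudogene. Gm13034, Gm13140 and Gm13135 share stretches with each other, with the chromatin remodeller gene Smarca5 or with Smarca5-ps, and their groups overlapped. Gm13034 had 6, 6 and 4 counts against 8, 4 and 3, Gm13140 had 7, 4 and 5 against 4, 8 and 4, and Gm13135 had 2, 3 and 4 against 1, 8 and 5. Gm20760 had 5, 5 and 1 against 9, 1 and 2, and the non-coding RNA Gm26880 7, 6 and 3 against 1, 3 and 1. Gm13241 was higher in every DHT library, with 2, 0 and 0 counts against 3, 3 and 3, a ratio of 4.96 (1.03 to 47.2). Gm13245, Gm13168 and Gm13162 also lay higher without overlap, with 1, 0 and 0 counts over the placebo group and 7, 3 and 5 over the DHT group. The vomeronasal receptor remnants Vmn2r-ps15, Vmn2r-ps16 and Vmn2r-ps17 had no count. The 66 members left out of the fit summed to 44, 42 and 38 counts in the placebo and 87, 108 and 85 in the DHT libraries, 2.54-fold higher, and placebo library 3 was not high here.

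Members can be set apart by how much of their sequence recurs elsewhere. The 19 members with under 5% of their 100-base stretches in other genes summed to 13, 44 and 97 counts in the placebo and 400, 308 and 330 in the DHT libraries, 7.25-fold, or 13.6-fold without placebo library 3. Zfp982 held most of these counts. The other 18, chosen after the values were seen, summed to 4, 1 and 8 counts against 19, 19 and 27, a ratio of 5.52 (95% interval 3.01 to 10.9, counting error only), and their CPM means were 5.68-fold apart, or 10.6-fold without placebo library 3. The 33 members with at least 50% shared summed to 85, 60 and 197 against 274, 299 and 256, 2.66-fold, or 4.42-fold without placebo library 3. All of these sums separated the groups, that of the 18 only with Zfp985 in it. Zfp985 had 1, 0 and 1 counts of that sum in the placebo and 12, 11 and 15 in the DHT libraries. The stretch was chosen on this contrast, so nothing is read from these separations.

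**Figure D2:**
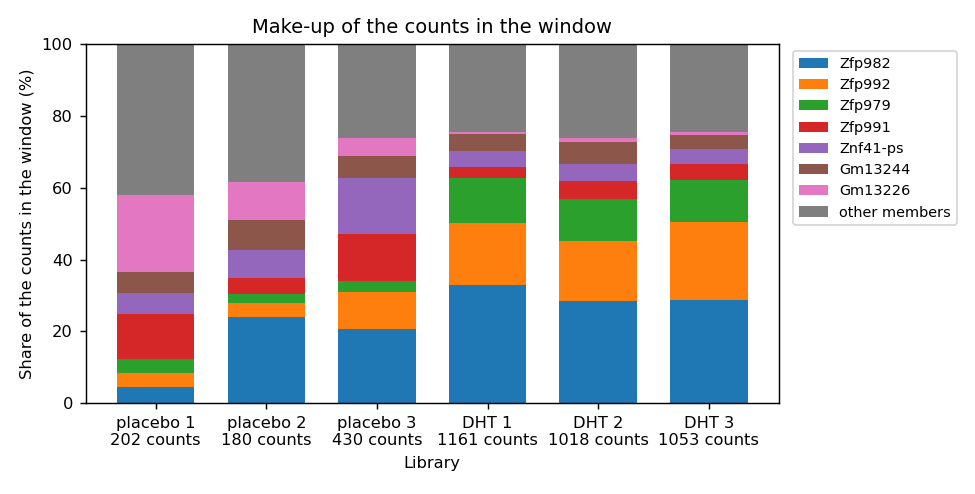
Share of the counts of the stretch (percent) held by 7 members and by all others in each library, with the total count under each bar. Zfp982, Zfp992 and Zfp979 together take most of the counts in the DHT libraries, while Gm13226 and Zfp991 take a larger share in placebo library 1 than in any DHT library.

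Placebo library 3 was the highest placebo library for 11 of the 14, among them Zfp982, Zfp992, Zfp991, Zfp979 and Znf41-ps. DHT library 3 was the highest DHT library for 10 of the 14. Placebo library 3 also had the most counts of Xist, and the highest summed CPM of zinc finger clusters on chromosomes 2 and 13. The part of this library in the spread was not tested.

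The zinc finger genes next to the cluster were not called by edgeR. Zfp984 (chr4:147753974-147809788), which carries the shared promoter stretch, had 131, 97 and 235 counts in the placebo and 161, 164 and 123 in the DHT libraries, and differed by -0.12 ± 0.40 (edgeR, adjusted p = 0.916). Its sign turned to 0.08 with library sizes alone and to 0.41 without placebo library 3. Zfp933 (chr4:147822986-147848366), which lacks the stretch, had 159, 170 and 321 counts against 235, 213 and 251 and differed by 0.06 ± 0.39 (edgeR, adjusted p = 0.958). Zfp979, the nearest member in the fit, ends at 147642513 and differed by 3.84 ± 0.46. A test of the difference between the genes inside and outside was not made, because the inside was chosen for it.

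Within 1 Mb on either side, 28 of 68 genes entered the fit, with a median log2 difference of 0.06. edgeR called 1 of them (3.57%), beside 1.65% of all genes. Over all genes, more were also called with the replicate block, DESeq2, limma voom and no low-count filter, as given below. Of the flanking genes, 4 were called with the replicate block, 5 with DESeq2 and 4 with limma voom. Library sizes alone gave 3, no low-count filter gave 2, and leaving out placebo library 3 gave 5. The additions were Mad2l2, Tardbp and Fbxo44, as higher, and Srm and Tnfrsf1b, as lower, Fbxo44 with DESeq2 only and Tnfrsf1b only without placebo library 3. On the left, the 3 nearest genes in the fit, Tnfrsf1b, Vps13d and Dhrs3, differed by -0.62 ± 0.38, 0.65 ± 0.38 and 0.52 ± 0.27 and were not called by edgeR with all libraries. On the right, beside Zfp984, Gm20707 differed by -0.48 ± 0.80 and Rps19-ps3 by -0.55 ± 0.52, neither called by edgeR, and both signs turned without placebo library 3. Exons of Gm20707 overlap those of Zfp984.

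**Figure D3:**
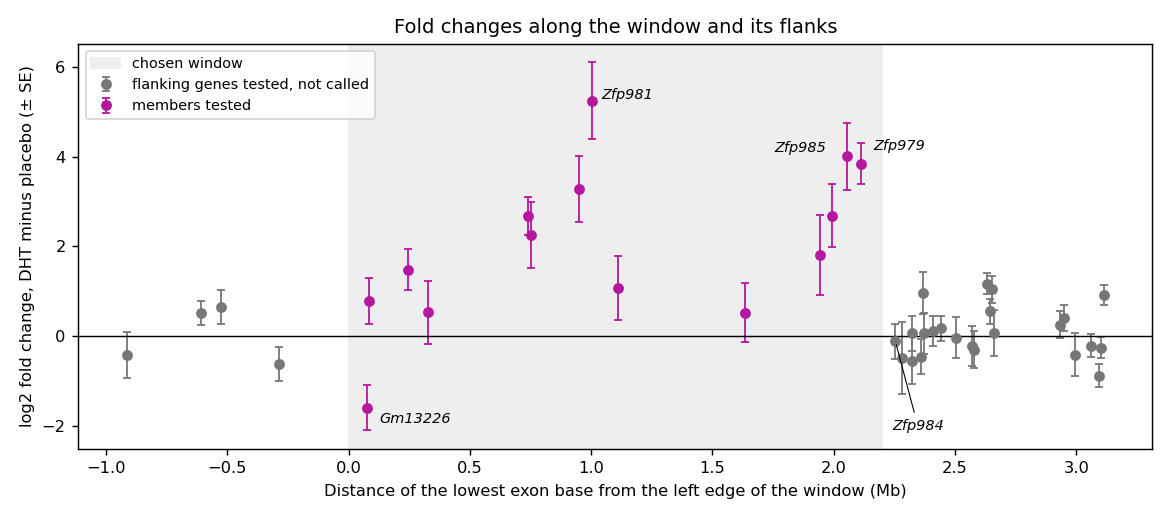
Log2 fold change of DHT minus placebo with its standard error, for genes in the fit, against the distance in Mb of each gene's lowest exon base from the left edge of the stretch (shaded). Members run from -1.60 to 5.25, and the flanking genes drawn from -0.88 to 1.17, a range that also holds some members. The flanking gene that was called is not drawn.

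No partner of the KRAB zinc finger proteins was called by edgeR with all libraries and the low-count filter, and few genes of any kind were. Of 38 listed symbols of the corepressor, histone methyltransferase, HP1, deacetylase and DNA methylation machinery, 36 were found and 35 entered the fit. edgeR called 0 of them, beside 1.65% of all genes, a share so low that 0 of 35 does not set the list apart. At an unadjusted p under 0.05 were 2, beside 2409 of all 15126. Trim28, the corepressor, stood at 45.6 ± 21.4 CPM in the placebo and 40.4 ± 4.03 CPM in the DHT group and differed by -0.36 ± 0.36 (edgeR, adjusted p = 0.653), with the sign turned without placebo library 2. Setdb1, the histone methyltransferase, stood at 13.1 ± 2.52 and 16.4 ± 0.983 CPM and differed by 0.13 ± 0.25 (edgeR, adjusted p = 0.830). Trim24, a relative of Trim28, differed by -1.28 ± 0.29 and was not called by edgeR (adjusted p = 0.0812). It was the 1 gene of the list called, as lower, with the replicate block, DESeq2, limma voom, no low-count filter or without placebo library 3.

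Zinc finger genes elsewhere served as a comparison. Of 477 others, 387 entered the fit, with a median log2 difference of 0.14. Of these, 255 (65.9%) lay above 0, beside 48.1% of all genes in the fit. Summed over all 477, their level was 2684 ± 65.8 CPM in the placebo and 3376 ± 138 CPM in the DHT group, 1.26-fold. Every DHT library was above every placebo library in this raw CPM, as were 21.1% of all genes in the fit. TMM factors ran from 0.921 to 0.966 in the placebo and from 1.04 to 1.08 in the DHT libraries. Scaling by them raises placebo and lowers DHT levels, and this sum was not scaled. edgeR called 0, beside 1.65% of all genes, with 27 at an unadjusted p under 0.05, beside 2409 of all 15126. With the replicate block 18 were called (14 higher and 4 lower), and with DESeq2 and limma voom 6 each. Leaving out placebo library 3 gave 11. Over all genes, more were also called with the block, DESeq2 and limma voom, as given below. A zinc finger cluster of chromosome 13, which holds regulators of sex-limited liver genes, had 37 of 70 genes in the fit. None was called in any fit, and 0 were at an unadjusted p under 0.05 in edgeR. Its summed level was 398 ± 127 CPM in the placebo and 377 ± 52.4 CPM in the DHT group. Most of this came from a pair of genes that are no zinc finger genes, Uqcrb at 223 ± 82.2 and 188 ± 23.3 CPM and Ptdss1 at 58.1 ± 9.57 and 60.6 ± 5.20 CPM. The 27 genes of this cluster with a zinc finger or Rsl symbol summed to 87.8 ± 44.8 and 96.5 ± 27.7 CPM, and these sums overlapped as well. A cluster of chromosome 2 had 20 of 98 genes in the fit. edgeR called 0, with 3 at an unadjusted p under 0.05. These 3, Gm14403, Gm14323 and Gm14414, were called as lower with the replicate block, and the last 2 with DESeq2. Its summed level was 62.7 ± 52.6 and 49.9 ± 19.8 CPM, and placebo library 3 alone was at 123 CPM. Neither comparison cluster separated the groups.

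**Figure D4:**
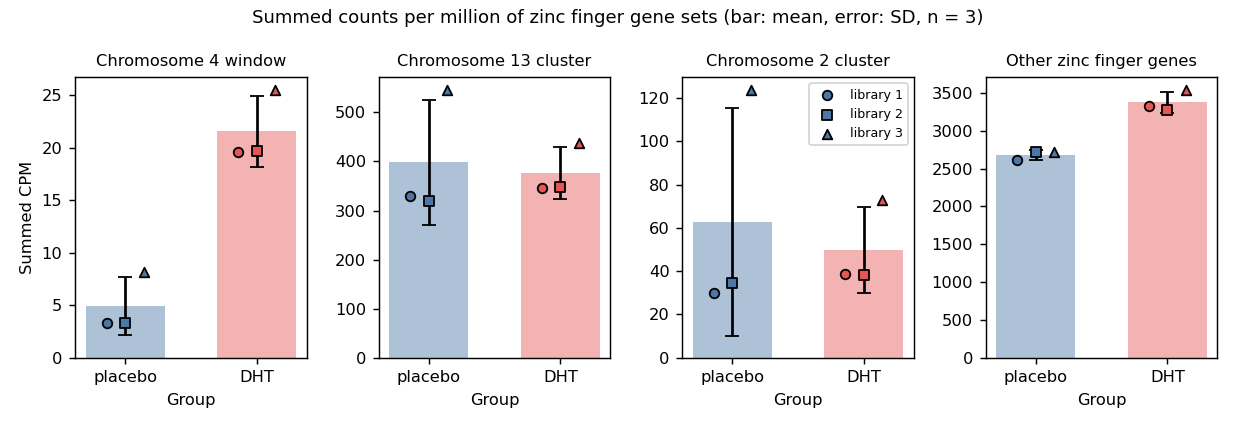
Summed CPM per library of the chromosome 4 stretch, of the zinc finger clusters of chromosomes 13 and 2, and of all other zinc finger genes by symbol; bars are means, error bars SD, n = 3, with a symbol for each library. The chromosome 4 sums lie at 3.27 to 8.14 in placebo and 19.6 to 25.5 in DHT libraries, and those of chromosomes 13 and 2 overlap. The sums of all other zinc finger genes do not overlap in this raw CPM, not scaled by TMM, at 2684 ± 65.8 and 3376 ± 138 CPM.

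Checks of the strain were open to gene-level counts only in part. Nnt, part of which is deleted in C57BL/6J, stood at 40.6 ± 5.87 and 67.5 ± 13.6 CPM (edgeR, adjusted p = 0.345), and gene totals do not show which exons were read. Wdfy1 stood at 3.49 ± 0.976 and 6.47 ± 2.33 CPM (adjusted p = 0.371) and Entpd4 at 0.160 ± 0.0446 and 0.227 ± 0.0392 CPM (adjusted p = 0.767). None was called, and whether the groups share all variants of the chromosome 4 stretch was not tested.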

How the data were processed

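The authors deposited whole-number counts per gene, 1 table per library, with each gene's exon coordinates and length, per the file headers. The submitters' processing notes name Trimmomatic 0.36, STAR 2.5.2b, featureCounts, Subread 1.5.2 and GRCm38. For the strand setting, the handling of multimapping reads and the counting of pairs or reads: not given in the sources used here. Libraries were read as 2x150 pairs, per the labels' protocols. No 2 libraries were alike within sampling noise.

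The comparison of DHT with placebo was fitted in R 4.3.3 with edgeR 4.0.16 (filterByExpr by group, TMM, glmQLFit robust, glmQLFTest, no covariates) on 15126 genes with Benjamini-Hochberg adjustment; the fit was tested on simulated data. It called 250 genes, 144 higher and 106 lower, with 2409 at an unadjusted p under 0.05; with the replicate block it called 1621. With library sizes alone it called 207 higher and 89 lower, and the median of all genes moved by 0.19 (log2). Alternatives were DESeq2 1.42.0, limma voom (limma 3.58.1), other scalings and filters, the replicate number as a block and leaving out each library; leaving out both libraries numbered 3, leaving out each library from summed levels and leaving Zfp982 out of a sum were added after seeing the data. Same-numbered libraries correlated over genes in their deviations from the group means (0.248, 0.146 and 0.601). For the replicate block this was taken as a pairing, which the labels do not state. Placebo library 1 with DHT library 2 (0.286) and placebo library 2 with DHT library 1 (0.443) correlated more, so that libraries 1 and 2 did not correlate best with their own number. CPM are raw counts scaled to the sum of all gene counts; 3 counts in a library are 0.0498 to 0.0726 CPM. Ratios carry exact 95% intervals from pooled counts, which cover counting error only, as do Wilson intervals.

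All 80 members matched GENCODE M21 (GRCm38) with the same coordinates. Shared 100-base stretches were counted over its transcripts, on either strand; copy families joined members that share at least 10% of the shorter set. Zinc fingers were counted in the longest translated coding sequence as C-2-C-12-H-3 to 5-H (Python 3.11.15, Biopython 1.88). The members, lists and comparison regions were chosen with earlier results of these data known. Named were all members in the fit, other members with at least 10 counts, the 3 genes in the fit nearest to each side, called genes of the comparison lists, Trim28, Setdb1 and the checks of strain and library identity. The flanking gene that was called is not reported here.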

Additional observations from a re-analysis of the deposited data

How the results depend on the processing

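The summed difference of the cluster kept its sign in every setting, between 1.90 and 2.70 (log2). On leaving out each library the range was 1.91 to 2.70. Of the 14 members, 13 stayed above 0 under each scaling, the replicate block, DESeq2 and limma voom. The stretch was chosen on this contrast, and members could pass the filter through the group in which they were high. The kept signs therefore support nothing. Counts of called genes moved most. Without the low-count filter they were 521 over all genes, 7 members, 2 flanking genes and 1 partner. With at least 1 CPM in 3 libraries 1 member was called, since 3 entered. With the replicate block 1621 genes, 8 members, 4 flanking genes, 1 partner, 18 other zinc finger genes and 3 of chromosome 2 were called. DESeq2 called 1062, 7, 5, 1, 6 and 2, and limma voom 707, 8, 4, 1, 6 and 0. Library sizes alone gave 3 flanking and 1 other zinc finger gene. Leaving out each library gave 84 to 862 genes, 0 to 9 members, 1 to 5 flanking genes, 0 to 1 partners and 0 to 11 other zinc finger genes. Without both libraries numbered 3, 448 genes, 4 members, 3 flanking and 2 other zinc finger genes were called.

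Zfp984 changed sign to 0.080 (library sizes alone), 0.0048 (replicate block), 0.28 (limma voom) and 0.41 (without both libraries numbered 3), with a range of -0.37 to 0.41 on leaving out each library. Gm20707 turned to 0.74 (limma voom) and 0.79 (without both), with a range of -1.02 to 0.60. Rps19-ps3 turned to 0.065 without both, with a range of -0.93 to 0.027, and Trim28 ranged from -0.67 to 0.025. The causes were not tested. A member near 0 to 3 counts has a fitted fold change that depends on edgeR's prior count, and members that share most of their sequence are limited by read placement.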
